A study of Mus musculus with 10 samples.

Results

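The genes described here are 47 genes of the lysosome, the acidic compartment in which macrophages break down what they engulf. They were chosen by name, from a list of glycan, sulfate, lipid and phosphate hydrolases, proteases, lysosomal membrane proteins, sorting receptors, subunits of the proton pump and transcription factors. Cathepsins, hexosaminidases and Scarb2 were not in the list. All 47 were found among the 17279 genes of the deposited table, and all 47 passed the filter on low counts, which kept 16949 genes.

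The libraries came from CX3CR1-GFP+ macrophages, sorted by flow cytometry from the lamina propria of the whole small intestine of mice. Mice had undergone sham surgery (5 libraries) or permanent middle cerebral artery occlusion (pMCAO, 5 libraries), a model of stroke without reperfusion, and cells were taken 24 h later. The genotype label of every library was C57BL6/J, without naming the allele that carries the GFP reporter, and the ages of the mice were not given in the sources used here. Replicate 1 of each group bore a name that marks it as a pool. CX3CR1 is also expressed by monocytes and some dendritic cells, so the reporter alone does not define a macrophage. The question addressed was whether the transcripts of the lysosome differed in these cells after stroke.

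Lysosomal hydrolases are made in the endoplasmic reticulum, and many are tagged with mannose 6-phosphate and carried to the lysosome by receptors that recognise this tag. A proton pump, the V-ATPase, acidifies the compartment, and heavily glycosylated membrane proteins line it. The related transcription factors TFEB, TFE3 and MITF bind a short palindrome that is known from the promoters of many lysosomal genes, and TFEB is held in the cytoplasm when the kinase mTORC1 is active on the lysosomal surface. In the gut, resident macrophages take up dying epithelial cells and bacteria, and lysosomal degradation is a large part of their work.

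That palindrome was searched for in the RefSeq promoter windows of the members (build GRCm38.p6), each reaching from 250 bases before the start site to 50 bases after it. Windows were found for 41 of the 47 members. The hexamer CACGTG lay in the windows of 13 of the 41 (31.7%), against 8.09% of the 27025 genes with a window. The same 13 genes held the longer TCACGTG on one strand or the other (31.7%, against 4.29% of all genes). The full TCACGTGA was found for 6 of the 41 (14.6%, against 1.12%), namely Atp6v0d1, Atp6v1a, Cln3, Gla, Igf2r and Mcoln1. The other members with the shorter forms were Arsa, Gaa, Glb1, Lamp1, Lgmn, Naglu and Sgsh. The 3 forms contain one another, so these counts are not separate observations. Since the palindrome is known from the promoters of lysosomal genes, a higher share among the members was foreseeable and is no independent test. The 27025 genes were not limited to those expressed in these libraries. A match is a description of letters, not a binding site. No window was found for Aga, Asah1, M6pr, Sort1, Atp6v0d2 or Atp6v1b2.

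The 5 windows with more than 1 copy are shown, since they let the reader see how the copies are spaced. Each stretch lies before the start site, and capitals mark TCACGTGA, TCACGTG or its reverse complement CACGTGA. Cln3, which encodes a lysosomal membrane protein lost in a childhood neurodegenerative disease, was read from chr7:126583332-126583405 (minus strand). Gla, for alpha-galactosidase A, was read from chrX:134601174-134601252 (minus strand). Igf2r, for the large mannose 6-phosphate receptor, was read from chr17:12769707-12769774 (minus strand). Lamp1, for an abundant glycoprotein of the lysosomal membrane, was read from chr8:13159080-13159160 (plus strand) and held 4 copies. Mcoln1, for the calcium channel TRPML1, was read from chr8:3500428-3500499 (plus strand).
Cln3: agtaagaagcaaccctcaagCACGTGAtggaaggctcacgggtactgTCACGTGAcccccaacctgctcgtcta
Gla: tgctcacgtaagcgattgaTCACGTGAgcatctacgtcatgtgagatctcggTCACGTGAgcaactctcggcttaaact
Igf2r: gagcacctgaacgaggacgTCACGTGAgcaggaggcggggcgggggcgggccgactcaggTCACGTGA
Lamp1: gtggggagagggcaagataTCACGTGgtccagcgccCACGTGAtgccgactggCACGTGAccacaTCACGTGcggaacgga
Mcoln1: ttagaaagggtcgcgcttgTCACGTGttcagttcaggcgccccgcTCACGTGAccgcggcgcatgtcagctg

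None of the 6 lipid and phosphate hydrolases that had a window held the hexamer in it, nor did Tfeb, Tfe3 and Mitf. Among the 13 members with it, 8 had a log2 fold change above 0 for pMCAO against sham, with a median of 0.08 and a range from -0.25 to 0.36. Among the 28 with a window but without it, 21 were above 0, with a median of 0.16 and a range from -0.46 to 0.66. The first range lay within the second, and no test was made between them.

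Total counts ranged from 18894151 to 60665972 in the sham libraries (median 33913980) and from 6430643 to 28672285 in the pMCAO libraries (median 11605371). At the median depth, weakly expressed members thus rest on fewer counts after pMCAO. Their spread between libraries went both ways. The coefficient of variation was 65.2% (sham) and 39.4% (pMCAO) for Arsb, but 52.2% and 97.7% for Atp6v0d2. Macrophage markers were present in every library, with none of the 12 at 0, among them Csf1r, Cx3cr1 and the C1q genes. Markers of other cells were present too, and none of the dendritic cell, T cell, epithelial or stromal and endothelial markers was at 0 in any library. In CPM (counts scaled to 1000000 per library, with TMM factors), the sum over 12 macrophage markers was 3369 in sham replicate 5, between 5837 and 9783 in the other sham libraries, and between 4917 and 12000 after pMCAO. Xist, the RNA that coats the silenced X chromosome in female cells, reached 1755 CPM in sham replicate 5 and was at 4460 CPM in pMCAO replicate 4, but at most 4.92 CPM in the other 8 libraries. The sum over 4 Y-linked genes was 1.23 CPM in pMCAO replicate 4 and 132 CPM in sham replicate 5, where Xist and Y-linked transcripts were thus both present. Sums over other markers ran from 88.0 to 428 CPM (sham) and from 95.8 to 337 CPM (pMCAO) for 6 dendritic cell genes, and from 608 to 2275 and from 601 to 1581 CPM for 5 genes of recently arrived monocytes. They ran from 189 to 401 and from 175 to 249 CPM for 6 T cell genes, from 823 to 24738 and from 1128 to 27276 CPM for 6 B and plasma cell genes, and from 546 to 1358 and from 198 to 1796 CPM for 14 epithelial genes. The main results are therefore given with and without sham replicate 5 and pMCAO replicate 4.

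The members were strongly expressed. Per kilobase of the longest GENCODE M21 transcript, the scale used here for comparing levels between genes, their median was 15.2 CPM, against 4.94 CPM over all genes tested that had a length, and 41 of the 47 lay above the latter. Of the members, 18 were above 34.9 CPM per kilobase, the limit of the top 10% of genes. The highest level belonged to Lamp1 (380.3 CPM per kilobase over the 10 libraries), followed by Lgmn (273), which encodes the asparaginyl endopeptidase legumain. Next came Asah1 (186), for acid ceramidase, Lamp2 (172), for the partner of Lamp1, Laptm4a (150.4) and Laptm5 (144). The lowest were Atp6v0d2 (2.25), a V-ATPase subunit best known from osteoclasts, Sort1 (2.47), for sortilin, and Arsb (2.50), for arylsulfatase B. The span from the lowest to the highest member was 169-fold. From Asah1 to Laptm5, each gene differed from the next by less than the SD between sham libraries of the higher one, so their order is not resolved.

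**Figure D1:**
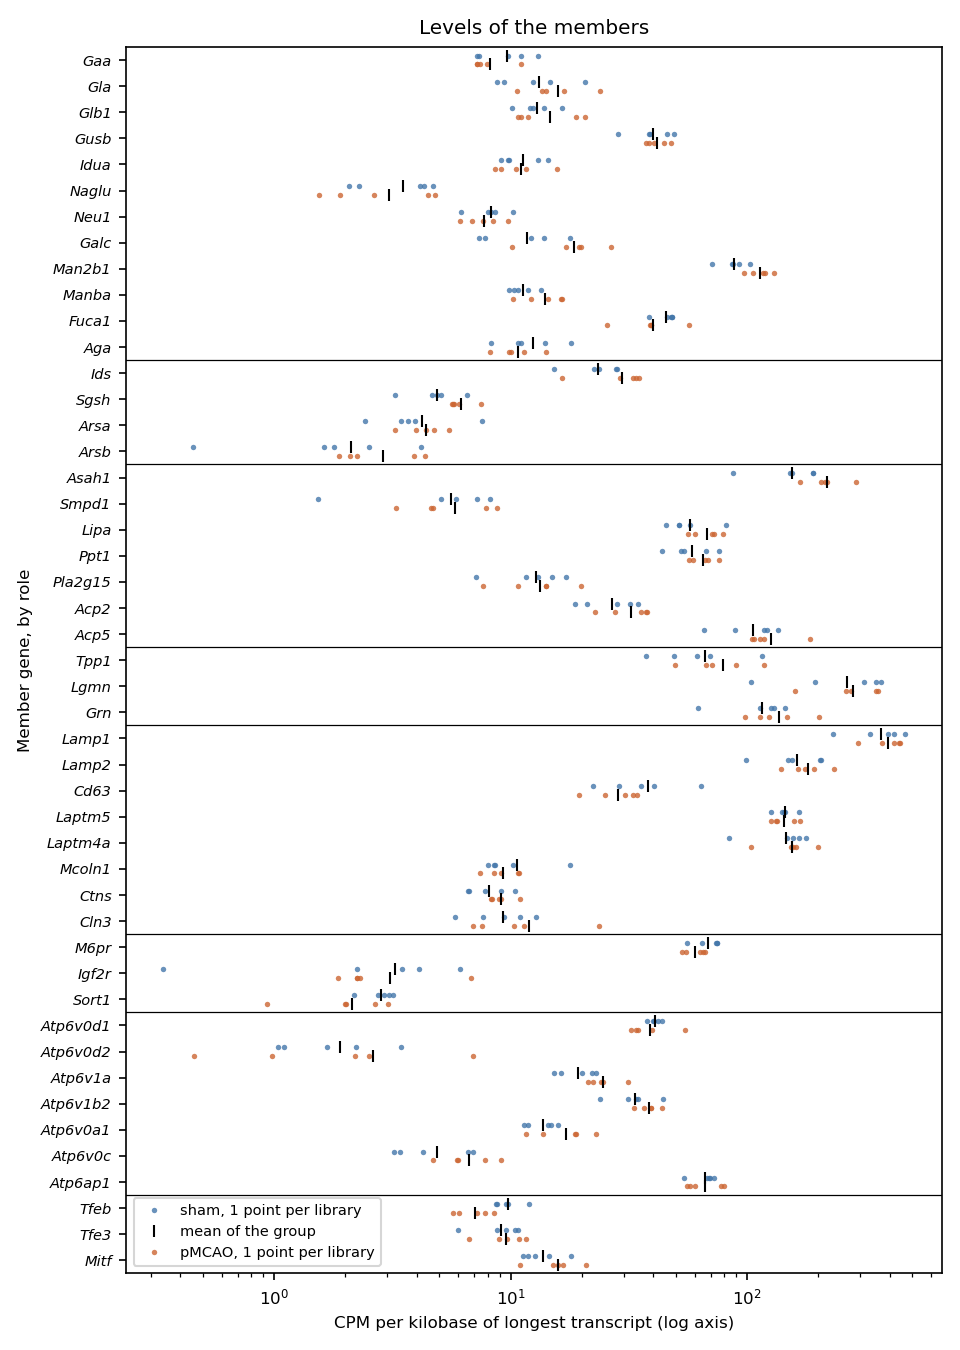
Levels of the 47 members by role, in CPM per kilobase of the longest transcript on a log axis, with 1 point per library (blue, sham; orange, pMCAO) and a black tick at each group's mean. Lamp1 (380.3 CPM per kilobase over the 10 libraries) is highest and Atp6v0d2 (2.25) lowest, and the points of the 2 groups overlap for every member but Tfeb.

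By role, the median level was 126 CPM per kilobase for the 3 proteases and granulin, 88.6 for the 8 membrane proteins and 62.0 for the 7 lipid and phosphate hydrolases. It was 22.0 for the 7 V-ATPase subunits, 13.2 for the 12 glycan hydrolases, 9.32 for the 3 transcription factors, 4.90 for the 4 sulfatases and 3.17 for the 3 sorting receptors. Within the sorting receptors the spread was wide. M6pr, for the small mannose 6-phosphate receptor, stood at 64.5 CPM per kilobase, whereas Igf2r stood at 3.17. The glycan hydrolases were led by Man2b1 (101), for lysosomal alpha-mannosidase, with Naglu (3.28), for an enzyme of heparan sulfate breakdown, at the bottom.

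The most evident pattern among the members lay between libraries rather than between groups. In sham replicate 5, 22 of the 47 members had their lowest value of all 10 libraries, and 42 were below their own mean. The median over members of log2 CPM minus the gene's mean was -0.40 there, whereas the median over all genes was 0.05. It was -0.13 in pMCAO replicate 5 and -0.10 in sham replicate 2, and between 0.05 and 0.23 in the other 7 libraries, with pMCAO replicate 3 highest. The 3 libraries with the lowest members were also the 3 with the lowest macrophage marker sums (3369, 4917 and 5837 CPM). They also had the highest sums over dendritic cell markers, which were 428 CPM in sham replicate 5, 337 CPM in pMCAO replicate 5 and 202 CPM in sham replicate 2, against at most 186 CPM elsewhere. The sums over 6 stromal and endothelial markers followed, at 98.9, 81.1 and 72.1 CPM in these libraries and from 24.5 to 66.1 CPM in the other 7. Single genes weighed heavily in both sums. Itgae had a mean of 119 CPM (sham) and 66.4 CPM (pMCAO), where Flt3, the next dendritic cell gene, had 27.7 and 49.2 CPM. Pecam1 had 56.3 and 46.6 CPM, where Col3a1, the next stromal and endothelial gene, had 6.20 and 5.12 CPM. These sums therefore do not measure the content of a cell type. In bulk samples, fewer macrophages and less RNA per macrophage cannot be told apart, and the part of either in the members' levels was not tested.

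**Figure D2:**
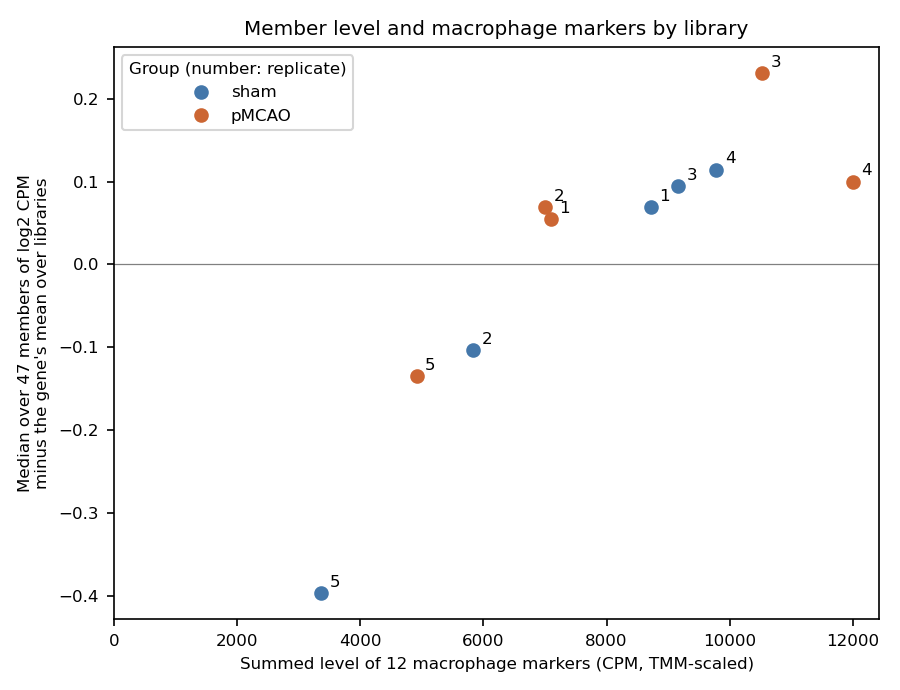
Each point is 1 library, with the summed level of 12 macrophage markers in CPM on the horizontal axis and the median over the 47 members of log2 CPM minus the gene's mean on the vertical axis (blue, sham; orange, pMCAO; numbers are replicates). Sham replicate 5 lies lowest on both axes, at 3369 CPM and -0.40, while libraries of both groups lie between 4917 and 9783 CPM, and the 2 highest marker sums, 10523 and 12000 CPM, are both from pMCAO libraries.

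The proteases and granulin followed this pattern most widely, with a median deviation of -0.97 in sham replicate 5 and 0.73 in pMCAO replicate 3. The membrane proteins did so less (-0.15 and 0.18 in the same libraries). Cd63, for a tetraspanin of late endosomes and secreted vesicles, went the other way, since its highest value of all, 185 CPM, was in sham replicate 5. Laptm5, a protein of blood cell lysosomes, varied least, by 1.34-fold between its lowest and highest library. Igf2r varied most, by 19.9-fold, with 3.02 CPM in sham replicate 4 and 54.4 and 60.2 CPM in replicate 2 of the sham and pMCAO groups. Replicate 2 of both groups also had the highest sums over B and plasma cell markers, 24738 and 27276 CPM. Sham replicate 4 had the lowest, 823 CPM. Sham replicate 5, next in Igf2r at 36.6 CPM, had a sum of 3722 CPM. The part of other cells in the spread of Igf2r was not tested. The median coefficient of variation over the members was 24.7% among sham and 21.5% among pMCAO libraries.

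**Figure D3:**
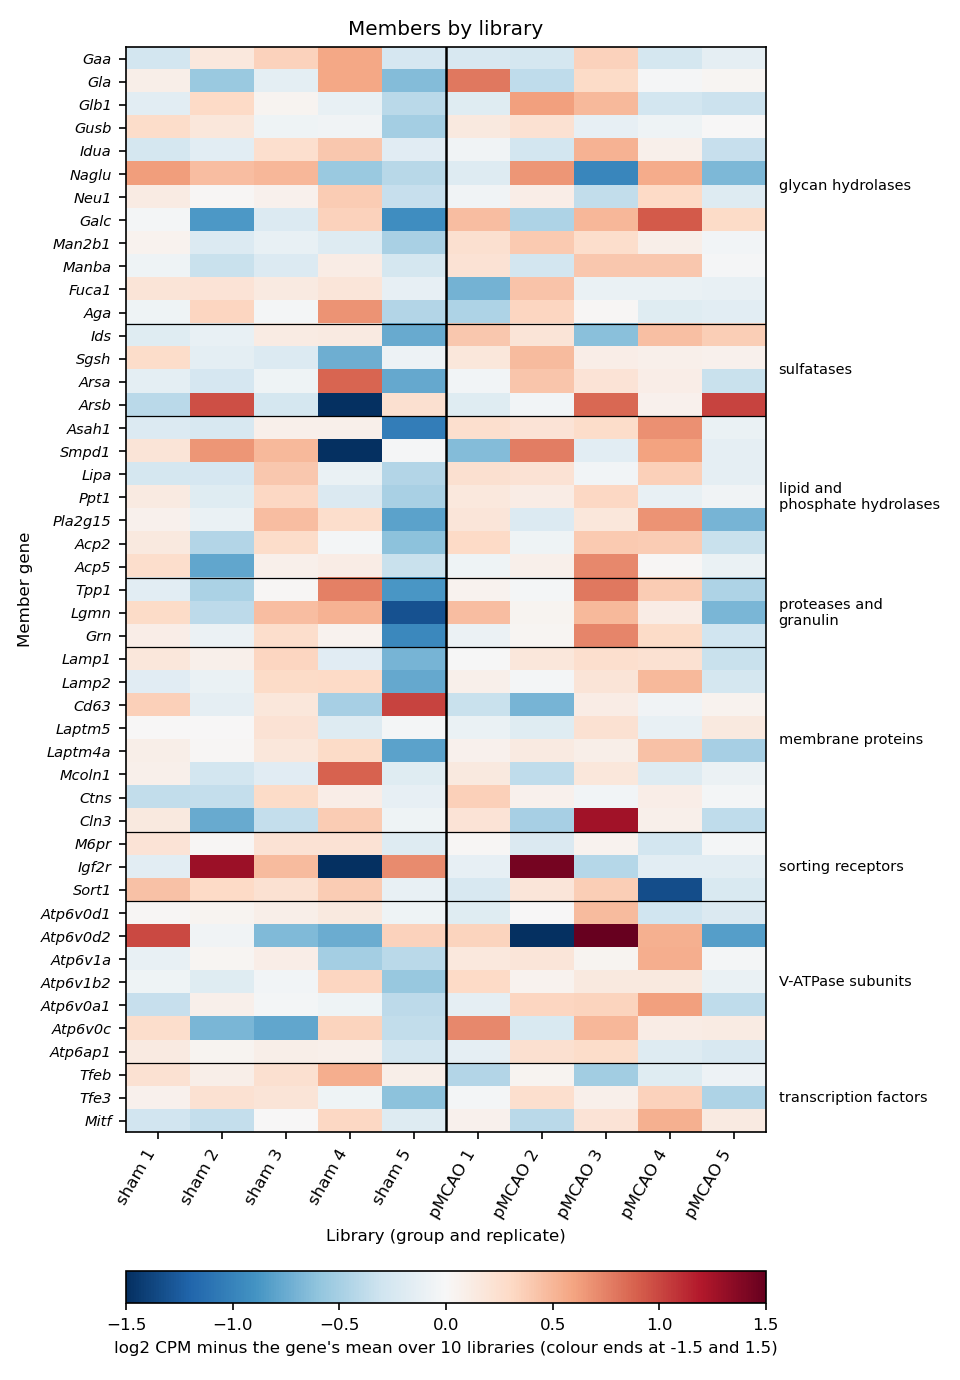
Colours give log2 CPM minus the gene's mean over the 10 libraries, for the 47 members (lines, by role) in each library (columns, sham left of the black line and pMCAO right of it). The column of sham replicate 5 is blue for most members, 42 of 47 being below their mean, while Cd63 is red there.

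Between the groups, no member differed at an adjusted p of at most 0.05 by edgeR's quasi-likelihood test with Benjamini-Hochberg adjustment over all genes, where 0% of the 16949 genes were called. The smallest adjusted p of a member was 0.922, and 0.373 was the smallest over this fit and 21 alternatives. At an unadjusted p under 0.05, 3 members were higher after pMCAO (6.38% of members, against 2.26% of all genes) and 1 was lower (2.13%, against 2.45%). Without the 2 libraries named above these counts were 0 and 1, and 0 members were higher without sham replicate 2, sham replicate 5 or pMCAO replicate 1 alone. All genes together gave 799 such p-values. DESeq2 called 3 genes of the whole table and limma-voom none, no member being among them, with 1011 and 882 genes at an unadjusted p under 0.05. The log2 fold change of 46 members was at most 0.5 in size, and for 38 members the 95% interval lay between -1 and 1. For those 38 members a change by more than 2-fold was thus outside the interval.

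Of the 47 members, 32 (68.1%) had a log2 fold change above 0, against 49.4% of all genes. Their median was 0.15, a 1.11-fold higher level after pMCAO, against -0.0059 over all genes. Without sham replicate 5 and pMCAO replicate 4, 25 of 47 (53.2%) were above 0 and the median was 0.05. Leaving out sham replicate 5 alone gave 26 members above 0 and a median of 0.03. The macrophage markers moved likewise, with a median of 0.16 and 8 of 12 above 0 in all libraries, and a median of -0.20 and 4 of 12 above 0 without the 2 libraries. These 2 libraries held the lowest macrophage marker sum (sham replicate 5, 3369 CPM) and the highest (pMCAO replicate 4, 12000 CPM). Leaving them out takes away both extremes, so the shifts of markers and members are not separate observations. Markers of other cells differed too, none with an adjusted p below 0.922 by edgeR. All 6 T cell markers were below 0, with a median of -0.73 and of -0.18 without the 2 libraries. Of 5 markers of recently arrived monocytes, 3 were below 0 (median -0.13) and 2 above, the highest being Ccr2 (0.14). Without the 2 libraries 3 of 5 were above 0, with a median of 0.13. At an unadjusted p under 0.05 by edgeR, 2 of the 5 were lower (40.0%, against 2.45% of all genes). They were Plac8 (-1.08, unadjusted p = 0.0227) and Vcan (-1.47, unadjusted p = 0.0450). The part of cell content in the members' median was not tested.

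**Figure D4:**
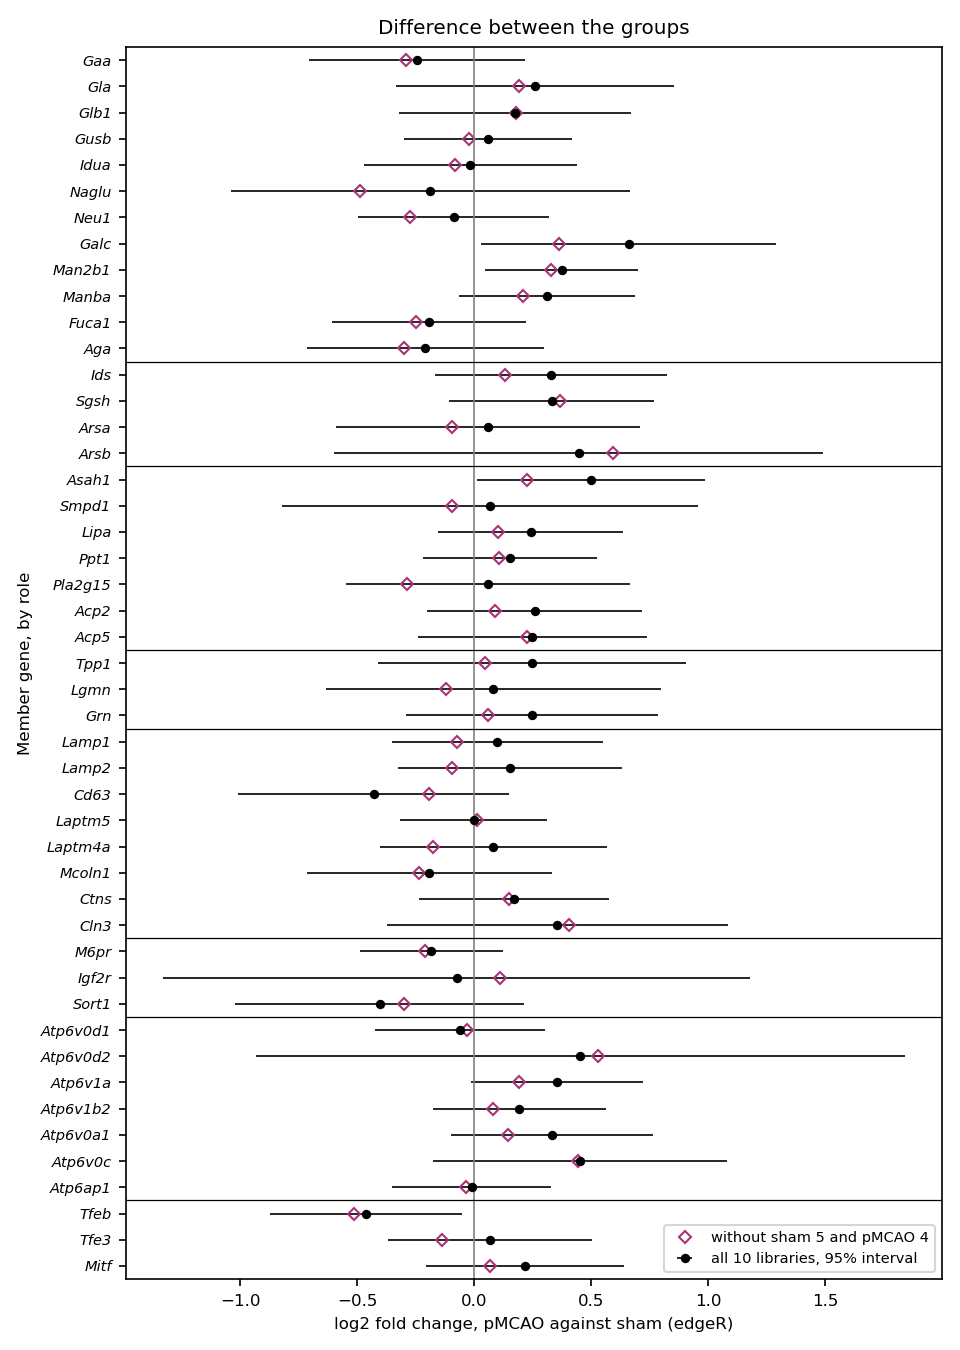
log2 fold change of pMCAO against sham for the 47 members by role, with 95% intervals from edgeR over all 10 libraries (black) and the estimate without sham replicate 5 and pMCAO replicate 4 (open diamonds). The intervals of 4 members exclude 0, and none of the 47 has an adjusted p below 0.922.

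Among the 12 glycan hydrolases, which split off sugars from a range of substrates, 6 were above 0 and 6 below, with a median log2 fold change of 0.02. Man2b1 was at 393, 328, 353, 333 and 271 CPM in sham replicates 1 to 5, and at 448, 498, 455, 404 and 370.2 CPM in pMCAO replicates 1 to 5. All 5 pMCAO libraries were above the sham mean and 4 of them above every sham library. The log2 fold change was 0.37 (SE 0.15, unadjusted p = 0.0281, adjusted p = 0.922 by edgeR), and 0.33 (unadjusted p = 0.0659) without the 2 libraries.

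Galc encodes the enzyme that removes galactose from the lipids of myelin and other membranes. Its levels in the sham replicates were 61.1, 34.4, 54.0, 78.9 and 32.6 CPM, and those in the pMCAO replicates were 86.0, 45.1, 87.9, 118 and 75.8 CPM. The highest value was in pMCAO replicate 4 and the lowest in sham replicate 5, and the groups overlapped. Its log2 fold change of 0.66 (SE 0.29, unadjusted p = 0.0414, adjusted p = 0.922 by edgeR) was the largest of all members, and it was 0.36 (unadjusted p = 0.233) without these 2 libraries. Of the other glycan hydrolases, Gla, Glb1, Gusb and Manba lay above 0, with log2 fold changes from 0.06 to 0.31, and Gaa, Idua, Naglu, Neu1, Fuca1 and Aga lay below, from -0.02 to -0.25. Their 95% intervals all included 0.

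The 4 sulfatases, which remove sulfate from glycosaminoglycans and sulfolipids, were all above 0, with a median of 0.33 and of 0.25 without the 2 libraries. Ids, for iduronate-2-sulfatase, was at 112, 117, 139, 139.7 and 75.5 CPM in the sham replicates and at 168, 145, 82.0, 174 and 164 CPM in the pMCAO replicates. All pMCAO libraries but replicate 3 were above every sham library. Its log2 fold change was 0.33 (95% interval -0.17 to 0.83, adjusted p = 0.922 by edgeR), but 0.20 without sham replicate 5 and 0.13 without the 2 libraries. Sgsh (0.33), Arsa (0.06) and Arsb (0.45) had intervals that included 0. Parts of the exons of Sgsh (21.6%) and Arsa (18.8%) are shared with a gene on the opposite strand. Arsb shares 32.3% with Gm26527 and 7.67% with Gm47210, both on the opposite strand. Whether reads were counted by strand was not given in the sources used here.

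All 7 lipid and phosphate hydrolases were above 0, with a median of 0.24 and of 0.10 without the 2 libraries, where 5 of 7 were above 0. Asah1, which splits ceramide, was at 429, 421, 525, 524 and 242 CPM in the sham replicates and at 590.3, 570.2, 601, 800.45 and 463 CPM in the pMCAO replicates. Every pMCAO library but replicate 5 was above every sham library, the lowest value of all being that of sham replicate 5 and the highest that of pMCAO replicate 4. Its log2 fold change was 0.50 (SE 0.22, unadjusted p = 0.0456, adjusted p = 0.922 by edgeR) and 0.22 (unadjusted p = 0.212) without those 2 libraries. The others were Lipa (0.24), for the lipase of cholesteryl esters, Ppt1 (0.15), Pla2g15 (0.06), Smpd1 (0.07), for acid sphingomyelinase, and the acid phosphatases Acp2 (0.26) and Acp5 (0.25), and their intervals included 0. Of the exon bases of Acp2, 12.6% are shared with Ddb2 on the opposite strand.

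The proteases Tpp1 and Lgmn and the growth factor precursor granulin (Grn), which is processed in the lysosome, had log2 fold changes of 0.25, 0.08 and 0.25. Lgmn was at 619, 386, 699, 730.2 and 206 CPM in the sham replicates and at 696, 522, 709.9, 549 and 316 CPM in the pMCAO replicates. No pMCAO library was outside the sham range. The 95% interval of its log2 fold change was -0.63 to 0.80, and the estimate was -0.12 without the 2 libraries. Without them Tpp1 was at 0.05 and Grn at 0.06, and the median of the 3 genes went from 0.25 to 0.05.

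Of the 8 membrane proteins, Lamp1, Lamp2, Laptm4a, Ctns and Cln3 were above 0 and Cd63, Laptm5 and Mcoln1 below, with a median of 0.09 and of -0.08 without the 2 libraries. Lamp1 was at 932, 875, 1036, 739.7 and 512 CPM in the sham replicates and at 829, 934, 987, 974 and 658 CPM in the pMCAO replicates. Again no pMCAO library was outside the sham range, and the log2 fold change of 0.10 (95% interval -0.35 to 0.55) became -0.08 without the 2 libraries. Of its exon bases, 9.31% are shared with Grtp1 on the opposite strand.

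Cd63 was at 117, 82.9, 103, 64.8 and 185 CPM in the sham replicates and at 72.3, 56.2, 98.7, 88.3 and 95.01 CPM in the pMCAO replicates. All pMCAO libraries were below the sham mean of 110.5 CPM, which sham replicate 5 raised. The log2 fold change was -0.43 (SE 0.27, unadjusted p = 0.132, adjusted p = 0.922 by edgeR) and -0.17 without sham replicate 5. Cln3 (0.36), Ctns (0.17), for the cystine exporter, Lamp2 (0.15), Laptm4a (0.08), Laptm5 (-0.0023) and Mcoln1 (-0.19) had intervals that included 0. The value of Cln3 rested on pMCAO replicate 3, at 75.4 CPM against 22.2 to 36.4 CPM in the other pMCAO libraries, and was -0.05 without it, while Mcoln1 was at 0.06 without sham replicate 4.

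The 3 sorting receptors were all below 0 (100% of them, against 50.6% of all genes), with a median of -0.18 and of -0.21 without the 2 libraries. M6pr was at 219.5, 192, 222, 221 and 166 CPM in the sham replicates and at 193, 164, 198, 158 and 187 CPM in the pMCAO replicates. All 5 pMCAO libraries were below the sham mean, 2 of them below every sham library, and the log2 fold change was -0.18 (95% interval -0.49 to 0.12, adjusted p = 0.922 by edgeR). Sort1, whose product carries some hydrolases and their activators to the lysosome, was at 21.8, 19.9, 18.8, 21.01 and 14.9 CPM in the sham replicates and at 13.6, 18.3, 20.7, 6.399 and 13.8 CPM in the pMCAO replicates. The lowest of these was pMCAO replicate 4, and its log2 fold change was -0.40 (SE 0.28, unadjusted p = 0.180, adjusted p = 0.922 by edgeR). Without pMCAO replicate 4 it was -0.22 (unadjusted p = 0.332), and without the 2 libraries -0.30. Igf2r had a log2 fold change of -0.08 with a wide interval, from -1.33 to 1.18, and was at 0.11 without the 2 libraries.

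Of the 7 V-ATPase subunits, 5 were above 0, with a median of 0.33 and of 0.14 without the 2 libraries. Atp6v1a, the subunit that hydrolyses ATP, was at 84.8, 93.1, 97.6, 64.3 and 69.0 CPM in the sham replicates and at 102, 104, 94.0, 133 and 89.8 CPM in the pMCAO replicates. All 5 pMCAO libraries exceeded the sham mean and 3 of them every sham library. The log2 fold change was 0.35 (SE 0.17, unadjusted p = 0.0583, adjusted p = 0.922 by edgeR), and 0.19 without the 2 libraries. Atp6ap1, an accessory subunit with the highest CPM of the 7, was at 158, 147, 153, 151 and 119 CPM in the sham replicates and at 131, 169.9, 174, 126 and 122 CPM in the pMCAO replicates. Its log2 fold change of -0.01 (95% interval -0.35 to 0.33) changed sign with the normalization. Atp6v1b2 (0.19), Atp6v0a1 (0.33), Atp6v0c (0.45), Atp6v0d2 (0.45) and Atp6v0d1 (-0.06) had intervals that included 0, and Atp6v0d2 was at -0.32 without pMCAO replicate 3.

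Among the transcription factors, Tfeb was at 22.5, 20.4, 22.8, 27.9 and 20.4 CPM in the sham replicates and at 14.2, 19.8, 13.3, 16.9 and 18.2 CPM in the pMCAO replicates. It was the one member whose groups did not overlap, every pMCAO library being below every sham library, although the nearest libraries, at 20.4 and 19.8 CPM, lay close together. Of all genes tested, 0.537% did not overlap and were lower, and 0.448% did not overlap and were higher, where the list had 1 (2.13%) and 0 members. The sham mean was 22.8 ± 3.09 CPM and the pMCAO mean 16.5 ± 2.71 CPM (SD, n = 5). Its log2 fold change was -0.46 (SE 0.19, unadjusted p = 0.0300, adjusted p = 0.922 by edgeR) and -0.51 (unadjusted p = 0.0446) without the 2 libraries. It lay between -0.54 and -0.35 in the 21 alternatives. The unadjusted p of Tfeb lay on both sides of 0.05 there, at 0.0345 by DESeq2 but 0.0798 by limma-voom. By edgeR it was 0.0974 without replicate 1 of both groups and 0.0617 without sham replicate 4. The groups overlapped once each library's trend with transcript length had been removed, and the unadjusted p by edgeR was then 0.0549.

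The relatives of TFEB gave other values. Tfe3 was at 60.7, 68.0, 66.0, 55.5 and 37.8 CPM in the sham replicates and at 56.6, 68.6, 60.9, 73.5 and 42.1 CPM in the pMCAO replicates. Replicate 5 was the lowest of both groups. The log2 fold change was 0.07 (95% interval -0.37 to 0.51), and -0.14 without the 2 libraries. Mitf was at 57.9, 55.3, 71.2, 88.1 and 61.7 CPM in the sham replicates and at 73.7, 53.6, 81.6, 102 and 77.6 CPM in the pMCAO replicates. These groups overlapped widely, and its log2 fold change was 0.22 (95% interval -0.21 to 0.64, adjusted p = 0.925 by edgeR), falling to 0.09 without pMCAO replicate 4 and 0.07 without the 2 libraries. The differences between Tfeb and its relatives were not tested.

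**Figure D5:**
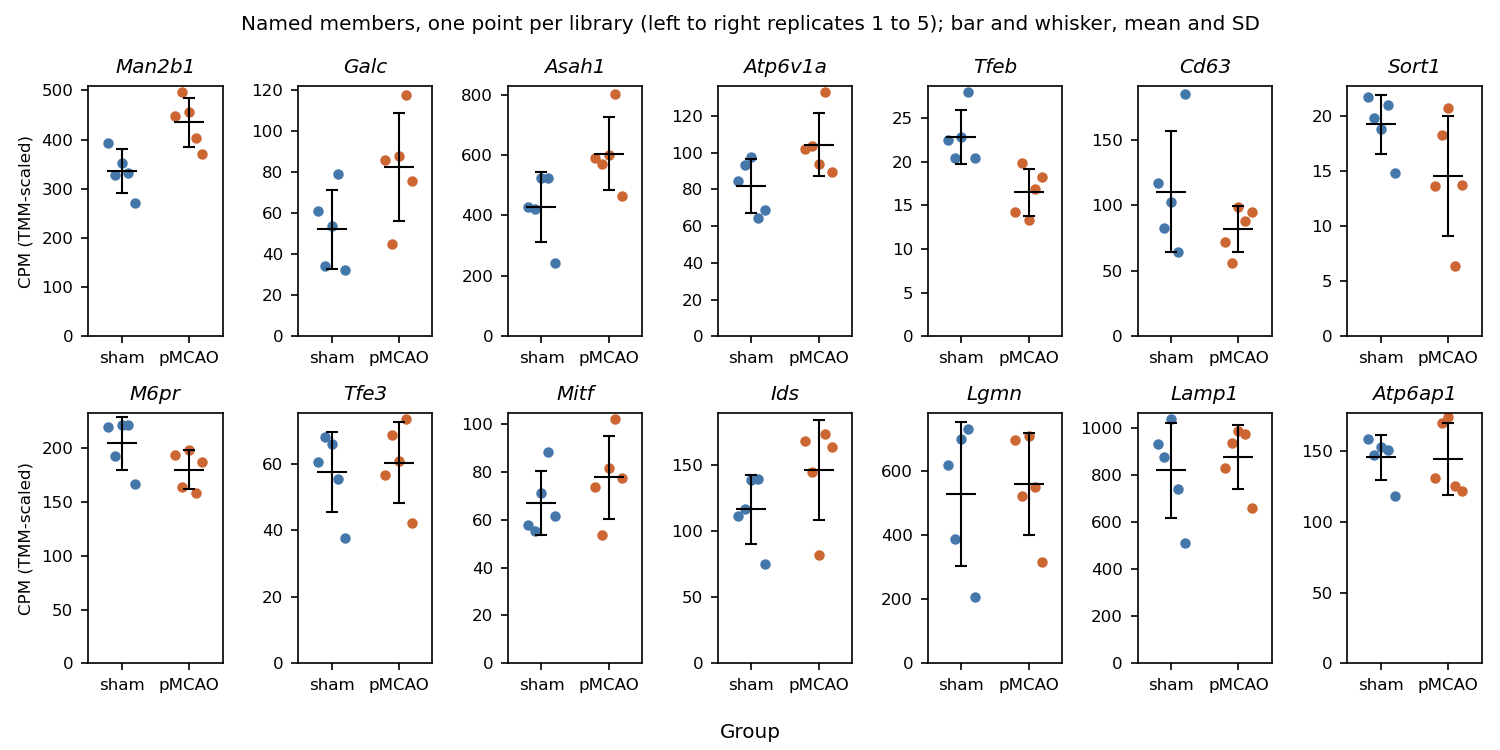
TMM-scaled CPM of 14 members in each library, with sham in blue and pMCAO in orange, the points of a group running from replicate 1 on the left to replicate 5 on the right, and the mean with its SD (n = 5) in black. The groups overlap in every panel but that of Tfeb, where the sham libraries lie from 20.4 to 27.9 CPM and the pMCAO libraries from 13.3 to 19.8 CPM.

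Genes of the same pathways outside the list gave no call either. Single genes named here from these lists are given from the edgeR fit to all 10 libraries only. How their values depend on the 2 libraries or on the processing is not shown. Of 11 other V-ATPase subunits, 2 had a log2 fold change above 0 and the median was -0.12, on the other side of 0 from the 7 subunits among the members. Of 15 other lysosomal enzymes, cofactors and lipid transfer proteins, 10 were above 0 (median 0.16, and -0.05 without the 2 libraries). All 11 other lysosomal membrane proteins, transporters and channels were above 0, with a median of 0.16, and 10 of 11 were so without the 2 libraries. The largest was Slc38a9, for an arginine sensor of the lysosomal membrane, with sham libraries at 30.7 to 70.9 CPM and pMCAO libraries at 57.9 to 81.0 CPM. It had a log2 fold change of 0.69 (SE 0.25, unadjusted p = 0.0154, adjusted p = 0.922 by edgeR).

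The 3 enzymes that add or uncover the mannose 6-phosphate tag, which the receptors above recognise, were all below 0, with a median of -0.24 and of -0.38 without the 2 libraries. Gnptg, the gamma subunit of the phosphotransferase, ranged from 27.5 to 33.9 CPM in sham libraries and from 15.8 to 25.5 CPM in pMCAO libraries, without overlap. This was 1 of 3 genes (33.3%), where 0.537% of all genes tested did not overlap and were lower. Gnptg had a log2 fold change of -0.57 (SE 0.19, unadjusted p = 0.00993, adjusted p = 0.922 by edgeR). Gnptab and Nagpa, for the other phosphotransferase subunits and the uncovering enzyme, had log2 fold changes of -0.12 and -0.24 and overlapped.

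Of 16 genes of mTORC1, Ragulator and folliculin, the nutrient-sensing machinery on the lysosomal surface, 12 were above 0 (median 0.18), and 10 without the 2 libraries (median 0.09). At an unadjusted p under 0.05 by edgeR, 1 was higher (6.25%, against 2.26% of all genes) and 1 was lower (6.25%, against 2.45%). The higher was Lamtor5 (0.61, unadjusted p = 0.0265) and the lower Lamtor2 (-0.47, unadjusted p = 0.0351), both with an adjusted p of 0.922 by edgeR. Lamtor5 and Lamtor2 encode 2 subunits of the same complex and lay on opposite sides of 0. The 18 genes of autophagy and lysosome fusion had a median of 0.03, with 10 above 0 and none at an unadjusted p under 0.05.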

How the data were processed

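RNA was sequenced from 5 sham and 5 pMCAO libraries after removal of ribosomal RNA. For every gene the authors deposited raw counts, which are whole numbers, and, beside them, CPM, in which counts are scaled to 1000000 over the listed genes of a library. The deposited table also holds the authors' log2 fold change, mean expression, p-value and FDR, which were not used. The submitters' processing notes name STAR, featureCounts, limma and the builds GRCm38 and mm10. Strandedness was not given in the sources used here. Each listed gene has at least 10 counts in at least 2 libraries.

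Groups and replicate numbers came from the sample titles, which call the libraries biological replicates. Nothing says which mice they came from, so p-values measure the spread between libraries. Counts were filtered with filterByExpr, normalised with TMM factors, and the groups were compared without covariates by quasi-likelihood tests (edgeR 4.0.16, R 4.3.3), after the fits had been tested on simulated data. The replicates of a group differed by more than sampling noise, and none was counted as a repeat. Alternatives were DESeq2 1.42.0, limma-voom (limma 3.58.1) with and without sample weights, other normalizations and filters, a replicate block, length offsets, and leaving out libraries.

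Members and lists were chosen with earlier results of these data known, so lists are described by counts and medians. Members with values per library are the 4 with the smallest p in each direction, the 3 transcription factors, the one with the highest CPM of each role, and any whose groups do not overlap. A value of 2 groups was called overlapping unless every library of one lay beyond every library of the other. Promoter sequences are from RefSeq.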

Additional observations from a re-analysis of the deposited data

Results flagged for a closer look

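In 13 of 112 groups of 5 libraries examined for the members and roles, the highest or lowest library stood apart, its gap to the nearest divided by the group's range exceeding 0.71. The ratios in brackets were taken on log2 CPM, with a prior count of 2 for the genes, and differ from those on linear CPM, on which low libraries stand apart less. Chance would set a library apart in about 1 of 20 independent groups of normally distributed values, which would be 5.6. The groups here share libraries, and the roles are made of the members, so 13 cannot be judged against 5.6. Sham replicate 5 was the low library for Fuca1 (0.773), Asah1 (0.714), Grn (0.715), Laptm4a (0.754) and Atp6ap1 (0.754). It was also low in the median deviation of the sorting receptors (0.758) and of the V-ATPase subunits (0.775). These 7 groups share the library that had the lowest macrophage marker sum, 3369 CPM, and their cause was not tested.

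Sham replicate 4 was low for Smpd1 (0.716), at 3.71 CPM against 12.3 to 19.7 CPM in the other sham libraries. In pMCAO replicate 3, Gaa (0.789) and Acp5 (0.787) were high, and Ids (0.756) was low, at 82.0 CPM. In pMCAO replicate 2, Sgsh (0.755) and Igf2r (0.834) were high, the latter at 60.2 CPM against at most 20.5 CPM in the other pMCAO libraries.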

How the results depend on the processing

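No member was called at an adjusted p of at most 0.05 in any of 21 alternatives, and 29 of 47 members kept the sign of their log2 fold change in all of them. The median over members lay between 0.03 and 0.20. The count of members with an unadjusted p under 0.05 that were higher (3) was 1 without both pooled libraries and 0 without both libraries with high Xist, and lay between 0 and 4 when 1 library was left out, being 0 without sham replicate 2, sham replicate 5 or pMCAO replicate 1 and 1 without pMCAO replicate 3 or 4. The count that were lower (1) was 0 with limma-voom, with length offsets and without the pools, and between 0 and 1 with 1 library left out, being 0 without sham replicate 3, pMCAO replicate 1 or pMCAO replicate 3. Without sham replicate 4 the 1 lower member was Cd63 (unadjusted p = 0.0369 by edgeR), while Tfeb had an unadjusted p of 0.0617. Members whose groups did not overlap and were lower numbered 0 with length offsets. Those that were higher numbered 2 without the pools and between 0 and 2 with 1 library left out (2 without sham replicate 1 or pMCAO replicate 5, 1 without pMCAO replicate 3). The cause of these changes was not tested beyond the smaller number of libraries.

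The log2 fold change of Atp6ap1 (-0.01) changed sign to 0.0102 with DESeq2, 0.0099 with its size factors in edgeR, 0.0087 with upper-quartile normalization, 0.0562 with length offsets and 0.0536 without the pools, and ran from -0.095 to 0.0436 with 1 library left out. That of Tfe3 (0.07) was -0.0635 with sample quality weights, -0.0016 with length offsets and -0.14 without the Xist libraries, and ran from -0.0574 to 0.17 with 1 left out. Lamp1 (0.10) was at -0.041 with quality weights and -0.0754 without the Xist libraries (-0.036 to 0.20 with 1 left out), and Lgmn (0.08) at -0.12 without the Xist libraries (-0.13 to 0.23).

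Equal replicate numbers were not taken to pair libraries, since the labels give no shared mouse or day. The correlations of their deviations ran from -0.0055 to 0.372, and 2 of 5 pairs correlated best with each other. Immunoglobulin and Jchain transcripts made up 5.15%, 16.3%, 6.36%, 0.587% and 4.56% of counts in sham replicates 1 to 5. In pMCAO replicates 1 to 5 they made up 6.26%, 19.2%, 0.939%, 0.915% and 5.44%. Libraries of equal number were thus alike in this share except in replicate 3, and whether they share a day was not tested. With the replicate block, edgeR called 0 genes (smallest adjusted p 0.173, 1303 at an unadjusted p under 0.05), and the median over members was 0.14. The unadjusted p with the block was 0.0022 for Galc, 0.0048 for Asah1 and 0.0133 for Man2b1, lower than without it. Their adjusted p was 0.565, 0.597 and 0.634. For Tfeb the unadjusted p rose to 0.0468, with an adjusted p of 0.648. The smallest pMCAO library, replicate 1, had 6430643 counts, which limits the precision of counting for weakly expressed members. Atp6v0d2, the weakest member, was lowest not there (5.57 CPM) but in pMCAO replicate 2 (1.16 CPM), which had 28672285 counts.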
